A study of Mus musculus with 2 samples.

Results

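In the mouse, 9 of the 12 microRNA genes of the let-7 family read here lie outside the clusters that join the other 3 to Mir99, Mir100 and Mir125 genes, and the levels of these 9 were measured in embryonic hindbrain. The 9 loci were chosen by name: Mirlet7a-1, Mirlet7b, Mirlet7c-2, Mirlet7d, Mirlet7f-1, Mirlet7f-2, Mirlet7g, Mirlet7i and Mir98, of 1973 loci in the count tables. Mirlet7f-1 has no row of its own, and its reads were taken from the opposite-strand count of Gm24111, a predicted microRNA annotated across it on the other strand. The other 8 loci were read from the gene-strand count of their own row.

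The tissue was hindbrain of mouse embryos of strain B6NCrl at embryonic day 14.5, with no treatment or mutation named in the labels. Small RNA under 30 nucleotides was sequenced from total RNA in 1 group of 2 libraries, replicate 1 collected on 24 July 2014 and replicate 2 on 30 July 2014. The labels call each sample a single hindbrain in one field and a pool of male and female in another, and give both samples the same donor, so it cannot be told whether the libraries come from separate animals. With 1 group, no condition could be compared. The levels of the loci, their differences from each other and the difference between the libraries are described. No p-value here measures variation between animals. Those of the binomial and Fisher's exact tests cover counting error only, and the difference between these 2 samples may be technical.

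Let-7 microRNAs are made from hairpin precursors that Drosha and Dicer cut to a mature strand, which guides Argonaute proteins to messenger RNAs that pair with its seed, bases 2 to 8. Their targets include Hmga2, Myc, Ras genes and Lin28 messengers. Mature let-7 is scarce in early progenitors and rises as neural cells stop dividing. LIN28 proteins, abundant in early embryos, bind the loop of the precursor, in many cases at a GGAG motif, and recruit enzymes that add uridines to it, which blocks its processing.

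The mature 5p strands are printed because they set which reads can be credited to 1 locus. The sequences are those of RefSeq on GRCm38.p6, where all 9 loci were matched, written 5′ to 3′ with the seed in capitals. All 9 share the seed, and they make 8 distinct 5p sequences.
Mirlet7g: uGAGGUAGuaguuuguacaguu
Mirlet7i: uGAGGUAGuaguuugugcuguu
Mirlet7b: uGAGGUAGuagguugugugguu
Mirlet7d: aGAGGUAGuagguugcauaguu
Mir98: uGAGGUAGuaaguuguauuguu
Mirlet7f-1 and Mirlet7f-2: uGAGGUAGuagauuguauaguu
Mirlet7c-2: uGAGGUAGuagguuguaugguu
Mirlet7a-1: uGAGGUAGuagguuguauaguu

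Outside the seed, the differences from let-7a, counted from 1 at the 5′ end with the let-7a base first, are few. They are G12A in let-7f, A19G in let-7c, A17G and A19G in let-7b, U1A and U16C in let-7d, G11A and A19U in miR-98, and G12U and U18C in let-7g. Let-7i has 4 differences, G12U, A17G, U18C and A19U, and it departs from let-7g at A17G and A19U only.

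Among 2238 microRNA loci searched on their own strand (GENCODE M21, with RefSeq hairpins added), the 5p sequences of Mirlet7g, Mirlet7i, Mirlet7b, Mirlet7d and Mir98 were each found in 1 locus. That of Mirlet7a-1 is also in Mirlet7a-2, that of Mirlet7c-2 in Mirlet7c-1, and those of Mirlet7f-1 and Mirlet7f-2 in each other. The 3p strand does not separate all of these, since Mirlet7a-1 and Mirlet7c-2 carry the same 3p sequence, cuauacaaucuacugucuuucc, printed here because it leaves neither arm of these hairpins to 1 locus. A 5p read of Mirlet7a-1 or Mirlet7c-2 becomes specific to its locus with 2 further bases of the hairpin at its 3′ end or 1 at its 5′ end. For Mirlet7f-1 and Mirlet7f-2 1 further base at either end is enough. The remaining genome was not searched.

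Replicate 1 held 5826676 gene-strand counts on loci and replicate 2 held 6667238. A separate row, credited to no locus, held the reads with several mapping positions. These were 33.9% of the reads of replicate 1 and 34.3% of those of replicate 2. How many of them are let-7 reads was not tested, so the levels of the 4 loci whose 5p strand has a copy are uncertain and can be too low. Levels are counts per 1000000 gene-strand counts on loci (CPM). They were not divided by length, because a read covers about 1 mature strand and all 9 5p strands have 22 bases. Intervals and floors cover counting error only, since no molecular identifiers were counted.

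The 9 loci together held 9.22% of the counts in replicate 1 (exact 95% interval by Clopper-Pearson, 9.19 to 9.24). In replicate 2 they held 10.74% (10.71 to 10.76), which gave a mean of 9.98% ± 1.07 (SD, n = 2). They made up 95.2% and 95.6% of the counts of all 12 let-7 loci. Nearly all the let-7 reads that could be credited to a locus therefore came from loci away from those 3 clusters. In the clusters, Mirlet7a-2 and Mirlet7c-1 share their 5p sequences with Mirlet7a-1 and Mirlet7c-2. Reads that map to both copies are left out, and their part in this split was not tested. The lowest of the 9 counts was 330 in replicate 1 and 516 in replicate 2, far above the floor of 3 counts, which is 0.515 CPM in replicate 1 and 0.450 CPM in replicate 2.

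**Figure D1:**
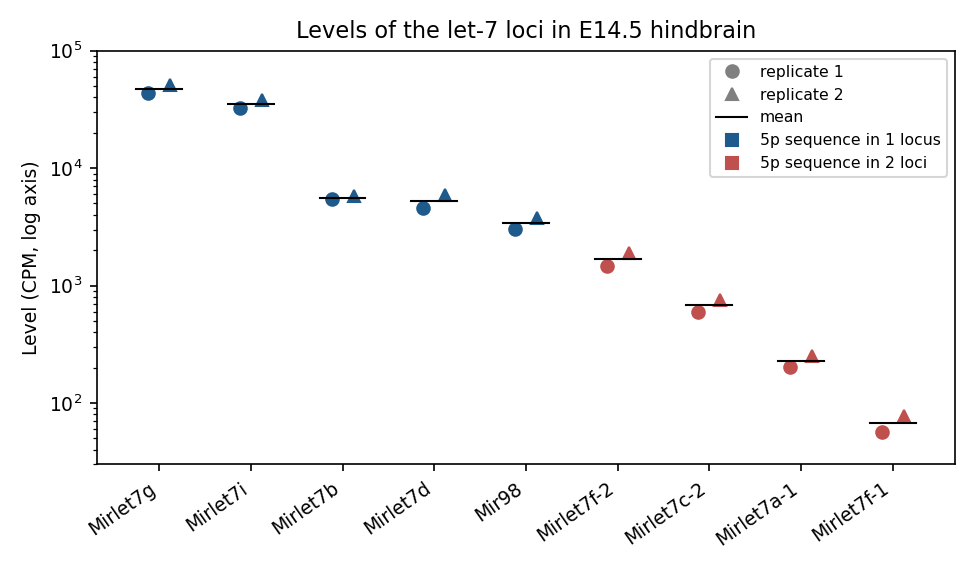
Level of each let-7 locus in CPM on a log axis, with a circle for replicate 1, a triangle for replicate 2 and a bar for the mean. The 5 loci whose 5p sequence is in 1 locus (blue) lie between 3037 and 50820 CPM, and the 4 whose 5p sequence is in 2 loci (red) between 56.6 and 1883 CPM.

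Mirlet7g and Mirlet7i, the most abundant of the 9 in credited reads, stand alone in the genome, with no other microRNA within 10 kb. Mirlet7g lies on chromosome 9 at 106178840 to 106178927 (GRCm38, plus strand), in an intron of Wdr82, which encodes a subunit of histone methyltransferase complexes. Its level was 44048 CPM in replicate 1 and 50820 in replicate 2, a mean of 47434 ± 4788 CPM (SD, n = 2), and ranked 4 of all loci. Mirlet7i lies on chromosome 10 at 122985640 to 122985724 (minus strand), in an exon of the transcribed pseudogene D630033A02Rik. Its level was 32777 CPM in replicate 1 and 38150 in replicate 2, a mean of 35463 ± 3799 CPM (SD, n = 2), and ranked 5. The ranges of the pair did not overlap.

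The ratio of Mirlet7g to Mirlet7i was nearly the same in both libraries, 1.34 in replicate 1 and 1.33 in replicate 2. Together they held 83.3% of the counts of the 9 loci in replicate 1 (83.25 to 83.44) and 82.9% in replicate 2 (82.77 to 82.94). Reads with several mapping positions are left out of this share, and the let-7 part of those reads was not tested. In rank, Mir10b of the Hoxd cluster stood above Mirlet7g with 70563 and 55822 CPM, a range that did not overlap that of Mirlet7g. Mir100 stood below Mirlet7i with 34553 and 33924 CPM, inside the range of Mirlet7i, so the order of Mirlet7i and Mir100 is not resolved.

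Mirlet7b and Mirlet7d came next and did not differ from each other beyond their spread. Mirlet7b stood at 5426 CPM in replicate 1 and at 5782 in replicate 2, a mean of 5604 ± 252 CPM. Mirlet7d had 4572 and 5929 CPM, a mean of 5250 ± 959 CPM (SD, n = 2). Mirlet7b was the higher in replicate 1 and Mirlet7d in replicate 2. The step from Mirlet7i down to Mirlet7b, 6.33-fold in mean CPM, was the largest between neighbours in the order of the 9.

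Mir98, a let-7 family member by its seed despite its name, stood at 3037 CPM in replicate 1 and at 3730 in replicate 2, a mean of 3384 ± 490 CPM (SD, n = 2). Mirlet7f-2 had 1460 and 1883 CPM, a mean of 1671 ± 299 CPM. Mirlet7c-2 had 599 and 756 CPM, a mean of 677 ± 111 CPM. From Mirlet7d downward, each locus in this order had a range that did not overlap that of the next.

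Mirlet7a-1 stood at 202 CPM in replicate 1 and at 251 in replicate 2, a mean of 227 ± 35.2 CPM (SD, n = 2). Mirlet7f-1, the lowest of the 9, had 56.6 and 77.4 CPM from 330 and 516 counts, a mean of 67.0 ± 14.7 CPM. On its own strand, Gm24111 had 0 counts in replicate 1 and 2 in replicate 2, both under the floor. The order of the 9 mean levels was the same when CPM was divided by the length of the annotated hairpin, 83 to 108 bases.

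The order of levels followed whether the 5p sequence had a copy. The 5 loci with an uncopied 5p sequence held 97.5% of the counts of the 9 in replicate 1 and 97.2% in replicate 2, and the 4 with a copy held 2.51% and 2.76%. The values of these groups of loci did not overlap, although the gap between the lowest of one, Mir98, and the highest of the other, Mirlet7f-2, was 2.02-fold in mean CPM. Summed over their copies, let-7f had 1738 ± 314 CPM, let-7c 1067 ± 149 CPM and let-7a 419 ± 60.3 CPM (SD, n = 2), still under Mir98. These sums leave out every read that maps to both copies, so the low let-7a value is not a measure of how much let-7a the tissue holds.

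The stretch of the hairpin between the arms is printed for the loci that differ in the motif known for LIN28 binding, GGAG, written in capitals. The motif was searched on the hairpin strand only.
Mirlet7g: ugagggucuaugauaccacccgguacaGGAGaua
Mirlet7i: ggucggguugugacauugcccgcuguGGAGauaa
Mirlet7d: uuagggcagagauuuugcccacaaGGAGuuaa
Mirlet7b: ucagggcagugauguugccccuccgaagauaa
Mirlet7c-2: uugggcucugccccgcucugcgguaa

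GGAG was present between the arms in 6 of the 8 loci described, also in Mirlet7a-1, Mirlet7f-1 and Mirlet7f-2, and absent in Mirlet7b and Mirlet7c-2. Among 644 mouse hairpins with both arms listed, 8.07% held it. The 6 loci with the motif ranged in mean level from 67.0 CPM (Mirlet7f-1) to 47434 CPM (Mirlet7g). The loci without it, Mirlet7c-2 at 677 CPM and Mirlet7b at 5604 CPM, lay inside the range of the others. A match is a description of the letters and not a binding site, and LIN28 itself was not measured.

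Of the 9 loci, 7 lie in 3 clusters, in which neighbouring hairpins can come from 1 transcript. Mirlet7a-1 (chromosome 13, 48538179 to 48538272), Mirlet7f-1 (48537829 to 48537917) and Mirlet7d (48536012 to 48536114) lie in exons of the long non-coding RNA 6720427I07Rik on the minus strand. Mirlet7c-2 (chromosome 15, 85706603 to 85706697) and Mirlet7b (85707319 to 85707403) lie in exons of the non-coding Lncppara on the plus strand. Mirlet7f-2 (chromosome X, 151912346 to 151912428) and Mir98 (151913214 to 151913321) lie in an intron of Huwe1, which encodes a ubiquitin ligase, on the plus strand.

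Within each cluster 1 locus held most of the credited reads. Mirlet7d had 22.7 times the counts of Mirlet7a-1 in replicate 1 and 23.6 times in replicate 2. It had 80.7 and 76.6 times those of Mirlet7f-1. Mirlet7b had 9.06 and 7.65 times the counts of Mirlet7c-2, and Mir98 had 2.08 and 1.98 times those of Mirlet7f-2. In every cluster the leading locus was the one whose 5p sequence is in 1 locus, and its neighbours were those with a copied one, and the part of unassigned multimapping reads in these ratios was not tested. In credited reads the 3 clusters were of similar size. They held 5.53% ± 0.415 of the counts of the 9 loci on chromosome 13, 6.31% ± 0.316 on chromosome 15 and 5.05% ± 0.247 on the X chromosome (SD, n = 2). Multimapping reads are left out, and their part in these sizes was not tested.

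**Figure D2:**
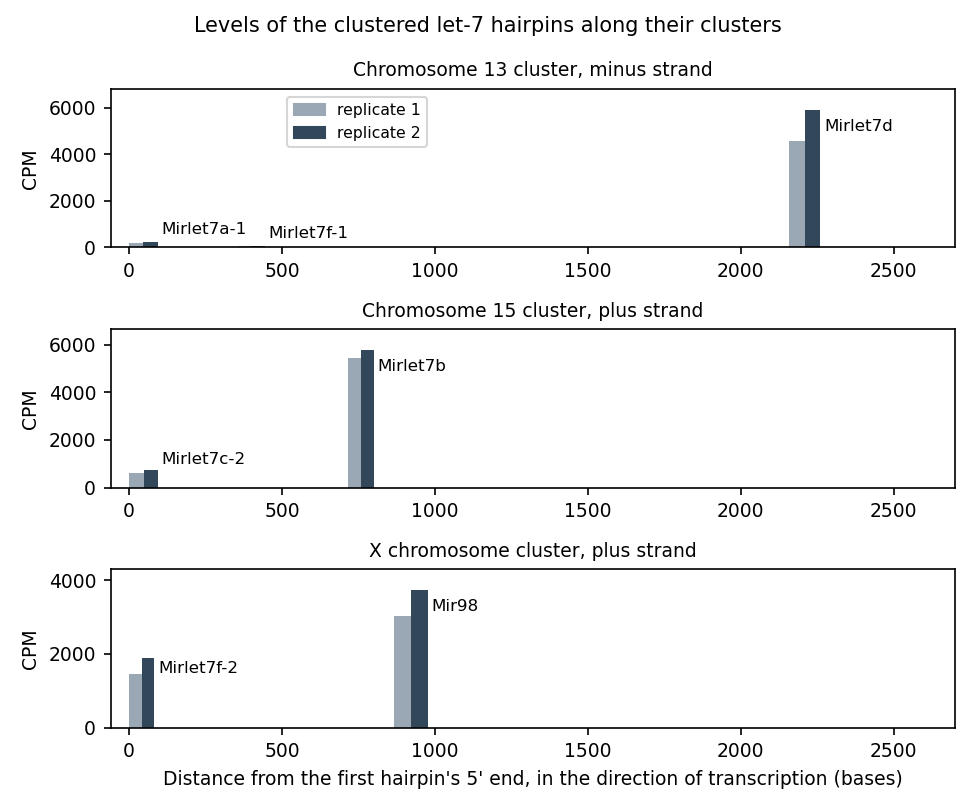
CPM of the clustered hairpins (vertical axis, starting at 0) against distance in bases along the cluster in the direction of transcription, with light bars for replicate 1 and dark bars for replicate 2 and bar pairs as wide as the hairpin. Mirlet7d, Mirlet7b and Mir98, each the last hairpin of its cluster, stand above their neighbours in both libraries.

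The libraries differed in let-7, as in much else. All 9 loci had higher CPM in replicate 2 than in replicate 1. Each locus was compared with an exact two-sided binomial test of its counts against the library sizes scaled by TMM. TMM gives each library a scaling factor in edgeR, on the assumption that most loci do not differ. The test was run over the 499 loci whose counts summed to 10 or more and adjusted by Benjamini-Hochberg at 0.05. The test covers counting error only and compares these libraries, not conditions. It called 32.7% of all loci tested, and 17.6% as higher in replicate 2. Loci with more counts are called more easily, and a run on the 312 loci whose counts summed to 100 or more called 79 higher and 84 lower. All 9 let-7 loci were called, all higher in replicate 2, and that they shared this direction was known when they were chosen. Of all loci tested 88 were called higher and 75 lower, a split that became 115 and 59 with library totals in place of TMM.

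**Figure D3:**
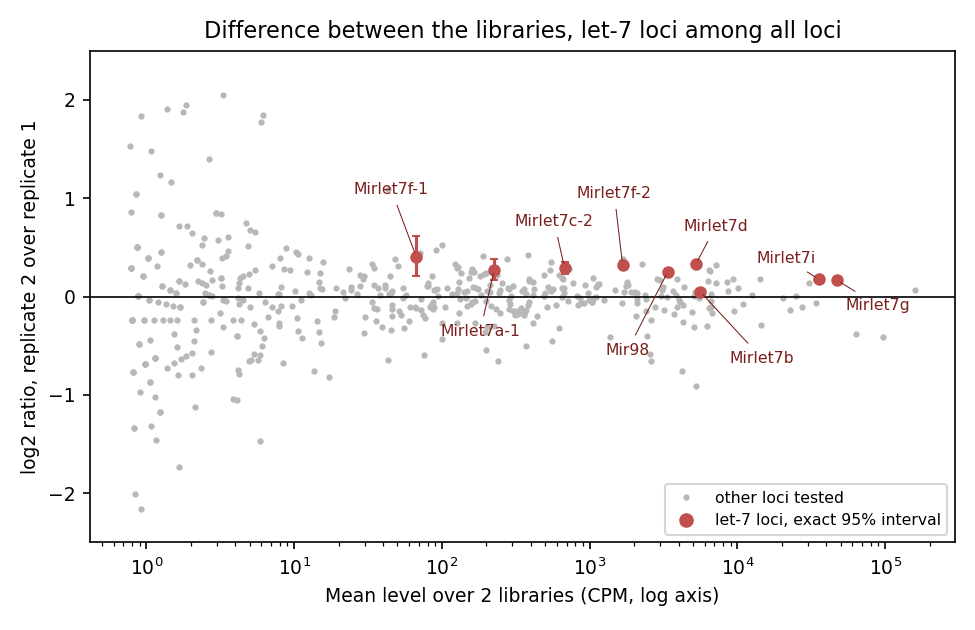
Log2 ratio of replicate 2 over replicate 1 (TMM-scaled) against mean CPM on a log axis for the 499 loci tested, with the 9 let-7 loci in red with exact 95% intervals and the others in grey. The let-7 loci lie between 0.05 (Mirlet7b) and 0.41 (Mirlet7f-1), above the median of all loci, 0.01.

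The log2 ratio of Mirlet7f-1 was 0.41 (exact 95% interval 0.21 to 0.61), the largest of the 9 and the one with the fewest counts. That of Mirlet7d was 0.33 (0.31 to 0.35), that of Mirlet7f-2 0.32 (0.28 to 0.36) and that of Mirlet7c-2 0.29 (0.23 to 0.36). Mirlet7a-1 had 0.28 (0.17 to 0.38) and Mir98 0.25 (0.23 to 0.28). The most abundant loci moved less, Mirlet7i by 0.18 (0.17 to 0.18) and Mirlet7g by 0.16 (0.16 to 0.17), a 1.13-fold and a 1.12-fold difference. Mirlet7b had the smallest ratio, 0.05 (0.03 to 0.07), with adjusted p = 3.66e-05 in the exact binomial test.

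The median over the 9 loci was 0.28, against 0.01 over all loci tested. Over the 283 loci that reached 100 counts in both libraries, the 9 among them, the median was 0.02, and 25 exceeded the let-7 median. The SD of the log2 ratio over those 283 loci was 0.23, so each let-7 ratio lay within 2 SD of 0. EdgeR's exact test was also run, with a common dispersion (coefficient of variation 10.8%) estimated by treating the same libraries as replicates of each other. The difference under test thus sets the spread it is tested against. Few calls are built into such a test, so it cannot decide whether the 9 loci differ. It called 0 of the 9 loci. Their unadjusted p-values in edgeR's exact test ran from 0.0976 to 0.825, with 0 under 0.05, and every adjusted p was 1. That test called 1.4% of all loci.

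Collection day and replicate coincide, so the difference cannot be told apart from the day or the library. Markers of several cell types were also called by the binomial test. The hindbrain loci Mir10a and Mir10b were both called lower in replicate 2, with a summed level of 179036 CPM in replicate 1 and 140148 CPM in replicate 2. Of 5 markers of choroid plexus and ciliated cells (Mir204, Mir449a, Mir449b, Mir449c and Mir1298), 4 were called lower, with summed levels of 14825 and 9098 CPM. The endothelial Mir126a was called higher, with 31783 and 36687 CPM, as were both red cell markers with a row, Mir144 and Mir451a, with summed levels of 261 and 373 CPM. Of 12 neural markers with a row, 4 were called higher and 3 lower, with summed levels of 17881 and 19408 CPM. Among them Mir124a-1 had 7.55 and 7.95 CPM, and Mir124a-2 and Mir124a-3 had less. The part of multimapping reads in these low levels was not tested. Of 6 pluripotent markers 3 were called lower, of 3 epithelial markers 1 was called lower, and of 2 smooth muscle markers 1 was called higher. No myeloid or liver marker with a row was called. Of 4 striated muscle markers with a row, Mir1a-1 and Mir133a-1 were at 0 in both libraries, Mir133a-2 had 0 counts and 1 count, and Mir206 had 14.9 and 16.2 CPM. With common dispersion, the calls of Mir144, Mir449a, Mir449b and Mir1298 held. Those of Mir10a, Mir10b, Mir126a, Mir204, Mir451a and the neural, pluripotent, epithelial and smooth muscle markers did not. A call lost there does not show that the locus is unchanged, since that test takes its spread from the libraries compared. The part of these loci, and of the cells they mark, in the let-7 difference was not tested, and in bulk tissue fewer cells of a type and less RNA per cell cannot be told apart.

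A ratio of neighbours within a library does not depend on library scaling, and the ratios of 5 pairs were compared between the libraries with two-sided Fisher's exact tests, adjusted over the 5. The ratio of Mirlet7b to Mirlet7c-2 was lower in replicate 2, 0.844 times its value in replicate 1 (exact 95% interval 0.807 to 0.884, adjusted p = 1.79e-12 by Fisher's exact test). The ratio of Mir98 to Mirlet7f-2 was 0.952 times as large (0.921 to 0.985, adjusted p = 0.0106 by Fisher's exact test). Neither test allows for variation between libraries beyond counting error.

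The 3 pairs of the chromosome 13 cluster did not pass Fisher's exact test. The ratio of Mirlet7d to Mirlet7a-1 in replicate 2 was 1.04 times that in replicate 1 (0.963 to 1.12, adjusted p = 0.388), and that of Mirlet7d to Mirlet7f-1 0.949 times (0.823 to 1.09, adjusted p = 0.480, exact test). The ratio of Mirlet7a-1 to Mirlet7f-1 was 0.912 times as large (0.777 to 1.07, adjusted p = 0.388, exact test). The intervals of both pairs with Mirlet7f-1, the locus with the fewest counts, hold the value seen for Mirlet7b and Mirlet7c-2, and that of Mirlet7d and Mirlet7a-1 does not.

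**Figure D4:**
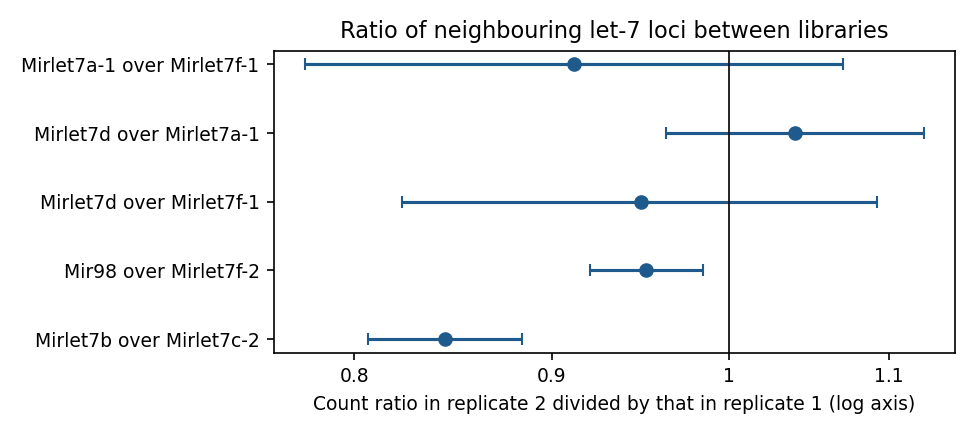
Count ratio of neighbouring let-7 loci in replicate 2 divided by that in replicate 1 (horizontal log axis), with exact 95% intervals, for 5 pairs. Mirlet7b over Mirlet7c-2, at 0.844, and Mir98 over Mirlet7f-2, at 0.952, have intervals that leave out 1, and the 3 chromosome 13 pairs have intervals that hold it.

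The 3 let-7 loci that lie beside Mir99 and Mir125 genes gave a comparison within the family. Mirlet7e, whose 5p sequence differs from that of let-7a, was counted on the opposite strand of another row and stood at 4078 CPM in replicate 1 and at 4263 in replicate 2. Mirlet7c-1 had 364 and 417 CPM and Mirlet7a-2 had 175 and 210 CPM. Both were called higher in replicate 2 by the exact binomial test, with log2 ratios of 0.15 and 0.22, inside the range of the 9 loci. Mirlet7e was not in that test, and its CPM differed between the libraries by a smaller factor than that of any of the 9. On the mean, Mirlet7a-1 stood at 227 CPM against 192.3 for its copy Mirlet7a-2, and Mirlet7c-2 at 677 CPM against 390.2 for its copy Mirlet7c-1. The range of Mirlet7a-1 overlapped that of Mirlet7a-2 while those of the let-7c loci did not overlap. Reads that map to both copies are left out of these levels, so they do not show which copy makes more of the shared 5p strand.

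The Mir99, Mir100 and Mir125 loci beside those 3 loci had ratios close to 0, and their difference from the 9 was not tested. Of 6 such loci 2 were called higher (Mir99a, log2 ratio 0.07, and Mir125a, 0.05), 2 lower (Mir100, -0.07, and Mir99b, -0.02) and 2 did not pass the exact binomial test (Mir125b-1, -0.02, and Mir125b-2, 0.03). With library totals in place of TMM every log2 ratio is larger by 0.04, which turns the sign of Mir99b and Mir125b-1. Of the 9 let-7 loci, Mirlet7b alone had a ratio inside the range of these 6.

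Outside the family, the locus nearest to each of the 9 in log2(CPM + 1) over the 2 libraries was sought as a description of likeness, which says nothing of shared function. Mir126a, the endothelial microRNA of Egfl7, was nearest to Mirlet7i, at a distance of 0.07 with 31783 and 36687 CPM. It was also the nearest to Mirlet7g, at 0.67, since no closer locus exists at that level. Mir23a was nearest to Mirlet7b, at 0.03, with 5425 CPM in replicate 1 and 5658 CPM in replicate 2. The nearest to the others were Mir598 for Mirlet7d (0.20), Mir431 for Mir98 (0.18), Mir770 for Mirlet7f-2 (0.04), Mir101a for Mirlet7c-2 (0.10), Mir700 for Mirlet7a-1 (0.05) and Mir3059 for Mirlet7f-1 (0.11).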

How the data were processed

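For each library the deposited table lists counts of reads at every microRNA locus, without normalization, for both strands and for each strand. Per the lists of files deposited with them, the build is mm10 and the annotation release M4. For the aligner and the counter the entry is: not given in the sources used here. The strand column with the larger total (98.0% and 97.8% of counts) was taken as the gene strand, and the rows of unassigned reads (unmapped 13.8% and 15.9%, multimapping 33.9% and 34.3%, outside loci 2.99% and 3.31%) stayed out of library sizes and tests.

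Gene symbols and positions were read from GENCODE M21, also on mm10 (1894 of 1973 loci matched) and sequences from RefSeq, GRCm38.p6. The stretch between the arms is not reported here for 1 of the 9 loci. The log2 ratio added 0.5 to each count. The naming rule took the 9 loci, their relatives beside Mir99 and Mir125 genes, the nearest locus to each and the rank neighbours of the top pair. The loci and lists were chosen with earlier results of these data known. With 1 library on each side, edgeR's quasi-likelihood test could not be fitted.

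In data simulated over 498 loci with counting error only, replicate 2 set against replicate 1, the binomial test called 0 unchanged loci. It called 21 of 50 changed 1.2-fold, 26 of 50 at 1.5-fold, 35 of 50 at 2-fold and 47 of 50 at 4-fold. The real libraries vary beyond counting error, so the simulation does not give the rate of false calls in them. Software was Python 3.11.15, scipy 1.17.1, R 4.3.3, edgeR 4.0.16 and DESeq2 1.42.0.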

Additional observations from a re-analysis of the deposited data

Results flagged for a closer look

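Signal appeared in columns and rows outside the main measurement, above the limit of 3 counts that a count of 0 allows. Mirlet7b had 10 counts on the opposite strand in replicate 1 and 15 in replicate 2, where the other loci had at most 2. Mir7j, a locus on chromosome 3 named for let-7, had 239 counts in replicate 1 and 367 in replicate 2 (41.0 and 55.0 CPM). Its mature sequence differs from let-7i over the 22 bases of let-7i by G8U alone, counted from 1 at the 5′ end with the let-7i base first, and so does not carry the let-7 seed. Whether these reads come from that locus was not tested.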

How the results depend on the processing

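All 9 let-7 loci stayed higher in replicate 2 and were called by the binomial test with library totals, DESeq2 size factors, upper quartile scaling, both count filters, counts of both strands, opposite-strand crediting, a pseudocount of 1 and copies summed (8 of 8 rows), and their median log2 ratio ran from 0.25 to 0.32. With edgeR's common dispersion 0 of the 9 were called, and over all loci 4 higher and 3 lower. That test adds the variation between the libraries to counting error. It takes this variation from the difference under test, so few calls are built into it. With all reads as denominator the share of the 9 loci was 4.77%, and all 9 levels were lower because the total was larger. Mirlet7g and Mirlet7i held 84.3% of the 9 loci's counts per hairpin length and 82.6% with copies summed. Leaving out a replicate gave 9.22% to 10.7% for the share of the 9 loci and 82.9% to 83.3% for Mirlet7g and Mirlet7i, and leaves no comparison between libraries. The pair ratios kept direction and call under both alternatives run. No paired analysis was possible because there is 1 group. Depth limits Mirlet7f-1 most, and copied loci are limited by unassigned multimapping reads.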
